A study of Mus musculus with 12 samples.

Results

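The stathmins and growth cone proteins described here are 6 of the 24489 genes in the count table. They were chosen by name: the stathmin genes *Stmn1*, *Stmn2*, *Stmn3* and *Stmn4*, and the growth cone genes *Gap43* and *Basp1*. The study sorted tdTomato-positive single cells from dissected mouse cochlea into 384-well plates and sequenced them with the Smart-seq2 protocol on each embryonic day from E14.5 to E18.5 and on postnatal day 3 (P3). A plate is a deposited sample and was treated as the replicate, with 3 plates at E16.5, 1 at E17.5 and 2 at each of the other stages. The labels give PVcre;Ai14 as the genotype of 11 plates and TrkCcre for E14.5 plate 2. The Methods name a *Ntrk3* Cre driver for all of E14.5, so the driver of E14.5 plate 1 is given differently by these sources. PVcre;Ai14 marks with tdTomato the cells that have expressed Cre from the parvalbumin gene, so the sorted cells are not a census of the cochlea. The paper takes its otic mesenchyme cluster as a likely contaminant of the sort, and it also reports glial contamination. Whether the drivers had labelled glial and mesenchymal cells was not tested. Cochleae of several animals were pooled, and nothing ties a cell to an animal, so p-values below measure the spread between plates.

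Stathmins are small phosphoproteins that bind tubulin dimers and favour the shortening of microtubules, and kinases switch this activity off by phosphorylation. *Stmn1* encodes the cytosolic founder of the family, which is common in dividing and immature cells. *Stmn2* (SCG10), *Stmn3* (SCLIP) and *Stmn4* (RB3) encode neural forms that carry a membrane anchor and travel on vesicles into axons. GAP-43 and BASP1 are protein kinase C substrates beneath the growth cone membrane that bind calmodulin and organise the actin skeleton. Spiral ganglion neurons (SGNs) carry sound information from the hair cells (HCs) of the cochlea to the brain, and the stages sampled cover the growth of their peripheral fibres to the HCs. GAP-43 is also known from immature Schwann cells.

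The first 120 coding bases of each member are shown because they hold the residues that separate the cytosolic from the membrane-bound proteins. Capitals mark cysteine codons, and these lie close together in the neural stathmins and in *Gap43*, where the cysteines are known to be palmitoylated.
Stmn1: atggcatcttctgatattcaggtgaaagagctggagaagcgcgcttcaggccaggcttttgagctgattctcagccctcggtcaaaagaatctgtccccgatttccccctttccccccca
Stmn2: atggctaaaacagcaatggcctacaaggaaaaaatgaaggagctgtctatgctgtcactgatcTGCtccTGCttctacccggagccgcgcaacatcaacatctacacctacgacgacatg
Stmn3: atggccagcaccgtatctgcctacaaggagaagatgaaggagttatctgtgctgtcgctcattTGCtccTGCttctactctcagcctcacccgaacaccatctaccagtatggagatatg
Stmn4: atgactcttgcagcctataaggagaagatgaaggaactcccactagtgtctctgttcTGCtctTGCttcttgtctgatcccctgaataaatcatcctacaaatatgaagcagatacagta
Gap43: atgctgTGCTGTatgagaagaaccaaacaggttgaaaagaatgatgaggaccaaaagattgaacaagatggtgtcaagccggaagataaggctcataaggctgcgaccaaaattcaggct
Basp1: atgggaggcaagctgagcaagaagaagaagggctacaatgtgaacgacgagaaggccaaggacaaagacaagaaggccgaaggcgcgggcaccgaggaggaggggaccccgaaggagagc
The cysteine codons in the bases shown are numbers 22 and 24 in *Stmn2* and *Stmn3*, 20 and 22 in *Stmn4*, and 3 and 4 in *Gap43*, counted from the start codon. *Stmn4* has 4 cysteine codons in its whole coding sequence, of which 2 lie in the bases shown. *Stmn1* has none in its 149 codons, and *Basp1* has none in its 226. BASP1 is instead held at the membrane by a myristoyl group on the glycine after its first methionine. The sequences were read from the GENCODE vM21 transcripts of GRCm38 (mm10), the build to which the authors mapped their reads. Over whole coding sequences, aligned stathmin pairs shared between 68.5% (*Stmn3* and *Stmn4*) and 73.5% (*Stmn2* and *Stmn3*) of their bases, and the authors kept uniquely mapped reads only.

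In the same annotation *Stmn1* spans chr4:134468320-134473843 on the + strand, *Stmn2* chr3:8509360-8561606 on the + strand and *Stmn4* chr14:66344296-66361680 on the + strand. *Stmn3* spans chr2:181306459-181314500, *Gap43* chr16:42248442-42340651 and *Basp1* chr15:25363277-25413764, each on the - strand. The spans thus run from 5.5 kb for *Stmn1* to 92.2 kb for *Gap43*, whose first transcript holds only 3 exons. The small RNA gene *Gm23634*, absent from the count table, shares 66 exon bases with *Stmn1* on the same strand, and *Mir6540* lies within an intron of *Gap43* without sharing exon bases.

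Cells with over 1000 genes and under 5% spike-in counts numbered 4226 of 4608 wells, and plate totals ran from 80997594 to 303906928 counts with 232473 to 1092427 median counts per cell. No cell repeated the counts of another. Clustering by stage without the members gave 2090 SGN-like, 1101 glia-like, 572 otic mesenchyme-like (OM-like) and 74 HC-like cells, each named from fixed markers. SGN-like sums carried the 15 SGN markers at 12240 to 17470 CPM (counts scaled to a common library size, with TMM factors), and HC-like sums at E18.5 carried the 16 HC markers at 10080 to 11090 CPM. Some classes carried markers of another. In the glia-like and OM-like cells of E16.5 plates 1 and 2 (the SS2_18 plates, 5 to 17 cells per class and plate), the summed SGN markers stood at 41.3% to 60.5% of the level of the SGN-like cells of the same plate, against 1.08% to 1.76% in the SS2_20 plates. The glia-like cells of E18.5, at 41.6% and 43.3%, entered no comparison. The HC-like sums of E18.5 plates 1 and 2 stood at 13.7% and 17.3%, and they also carried epithelial markers at 2354 and 2245 CPM, OM markers at 4680 and 1538 CPM and glial markers at 1227 and 1120 CPM. Conversely, glial markers summed to 172 to 340 CPM in the SGN-like cells of the 6 SS2_20 plates, 1128 to 1259 CPM in SS2_18, 3732 to 3786 CPM at E18.5 and 6380 to 7688 CPM at P3. All P3 plates belong to SS2_15 and all E18.5 plates to SS2_19, so stage and plate series cannot be told apart there. Results that rest on these cells are given with and without them, and the part of the other cells' RNA in the results was not tested.

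In SGN-like cells *Stmn2* and *Stmn3* were the leading members by the length of the first annotated transcript, at every stage. Per kb of this transcript, *Stmn2* stood at 1349 CPM per kb and *Stmn3* at 1147 CPM per kb at E14.5, followed by *Gap43* at 737, *Stmn4* at 299, *Basp1* at 238 and *Stmn1* at 177 CPM per kb. At P3 *Stmn3* was first with 3159 CPM per kb and *Stmn2* second with 1821 CPM per kb, while *Stmn1* was last with 52.0 CPM per kb. The place of *Stmn2* depends on the length used. Divided by all annotated exon bases it stood at 499 CPM per kb at E14.5, below *Stmn3* at 1147 and *Gap43* at 687 CPM per kb.

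Both growth cone genes fell early, between E14.5 and E16.5, in SGN-like cells. The Methods give a *Ntrk3* Cre driver for E14.5 and a parvalbumin Cre driver for the later embryonic stages, while the labels give TrkCcre for E14.5 plate 2 only. By the Methods, stage and driver cannot be told apart in comparisons with E14.5, in any class. *Gap43* stood at 1188 and 904 CPM at E14.5, at 460 and 475 CPM at E15.5 and at 563, 572 and 514 CPM at E16.5. *Basp1* stood at 481 and 401 CPM at E14.5, 317 and 373 CPM at E15.5 and 258, 303 and 259 CPM at E16.5. For both genes the E14.5 plates lay above all plates of E15.5 and E16.5. *Gap43* fell by 0.97 ± 0.11 on the log2 scale (standard error; adjusted p = 0.000301) and *Basp1* by 0.73 ± 0.14 (adjusted p = 0.00657) in edgeR's quasi-likelihood test on counts summed per plate. These 2 members were the only ones called at an adjusted p under 0.05, both lower, where 5.83% of the 17771 genes tested were called lower and 8.65% higher.

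The stathmins moved less over this interval. *Stmn3* stood at 1327 and 1278 CPM at E14.5 and at 1601, 1648 and 1517 CPM at E16.5, without overlap, and its difference of 0.25 ± 0.08 gave an adjusted p of 0.0528. *Stmn2* ranged from 2570 to 3025 CPM at E14.5 and from 2521 to 3061 CPM at E16.5, so the groups overlapped. The log2 differences of *Stmn1* (-0.17 ± 0.12), *Stmn2* (-0.02 ± 0.09) and *Stmn4* (-0.11 ± 0.17) were not called. Within the SS2_20 plates alone *Gap43* differed by -1.04 (adjusted p = 0.0274) and *Basp1* by -0.78 (adjusted p = 0.0769). Without E14.5 plate 1, the *Basp1* difference was -0.56 (adjusted p = 0.0655). *Stmn3* passed the threshold in several alternative analyses, among them the one restricted to cells below the median in glial marker counts (0.44, adjusted p = 0.0137).

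Between E16.5 and E18.5 *Gap43* and *Basp1* parted. *Gap43* stood at 770 and 756 CPM at E18.5, above each E16.5 plate and above the single E17.5 plate at 629 CPM. *Basp1* stood at 140 and 152 CPM at E18.5, below each E16.5 plate and the E17.5 plate at 260 CPM. *Gap43* rose by 0.50 ± 0.11 (adjusted p = 0.0307) and *Basp1* fell by 0.88 ± 0.15 (adjusted p = 0.00923), against 2.33% of genes called higher and 2.01% lower. Leaving out any of the 7 plates of E16.5, E18.5 and P3 ended the *Gap43* call (adjusted p 0.0537 to 0.277), and leaving out E18.5 plate 1 or plate 2 ended the *Basp1* call (adjusted p = 0.123 and 0.0903) with differences of -0.86 and -0.98.

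No stathmin was called in this step. *Stmn4* stood at 384, 429 and 298 CPM at E16.5, at 171 CPM in the E17.5 plate and at 251 and 237 CPM at E18.5. Its difference of -0.58 ± 0.17 had an adjusted p of 0.0922, although every E18.5 plate lay below every E16.5 plate. *Stmn3*, at 1813 and 1802 CPM at E18.5, lay above all E16.5 plates, with a difference of 0.21 ± 0.08 (adjusted p = 0.169). *Stmn1* stood at 169, 183 and 160 CPM at E16.5, 127 CPM at E17.5 and 142 and 136 CPM at E18.5, and its difference of -0.27 ± 0.12 was not called.

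The stathmins split between E18.5 and P3. At P3, 137 cells stayed unnamed and are not in the SGN-like sums, against 8 unnamed cells at E18.5. They formed clusters of 86 and 51 cells that scored highest for SGN markers, with *Calb1* among the leading genes of both. The part of this difference in cell make-up in the results was not tested. *Stmn1* fell to 62.3 and 47.9 CPM and *Stmn4* to 125 and 85.2 CPM at P3, each below all 10 embryonic plates. *Stmn3* rose to 3820 and 3358 CPM and *Stmn2* to 3879 and 3672 CPM, each above all embryonic plates. The log2 differences were -1.34 ± 0.14 for *Stmn1* (adjusted p = 9.88e-05), -1.22 ± 0.19 for *Stmn4* (adjusted p = 0.000971), 0.98 ± 0.08 for *Stmn3* (adjusted p = 4.24e-05) and 0.52 ± 0.10 for *Stmn2* (adjusted p = 0.00412). Thus the form of immature cells and the RB3 form were lower after birth while the SCG10 and SCLIP forms were higher.

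*Basp1* also rose, to 287 and 217 CPM at P3 (0.78 ± 0.16, adjusted p = 0.00438), while *Gap43* stood at 634 and 582 CPM (-0.34 ± 0.12, adjusted p = 0.0687). In all, 3 members were called higher and 2 lower, where 12.2% of genes were called higher and 12.1% lower. The TMM scaling factors differ between these stages, and on the scale of unscaled CPM every gene's difference is shifted by -0.27. With limma on log2 mean CPM over cells, which applies no such scaling, *Stmn2* differed by 0.26 (adjusted p = 0.147), *Basp1* by 0.46 (adjusted p = 0.0625) and *Gap43* by -0.61 (adjusted p = 0.00614). Without E18.5 plate 1 the *Basp1* difference was 0.71 (adjusted p = 0.0546).

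Glial markers in SGN-like cells were higher at P3 than at E18.5, as given above. Among the cells below the median in glial marker counts of their own plate, the differences between P3 and E18.5 were -1.48 for *Stmn1* (adjusted p = 0.000558), -1.34 for *Stmn4* (0.00193), 0.78 for *Stmn3* (0.00083), 0.59 for *Basp1* (0.0406) and 0.37 for *Stmn2* (0.0899). The directions stayed as in all cells, and the *Stmn2* call was lost.

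**Figure D1:**
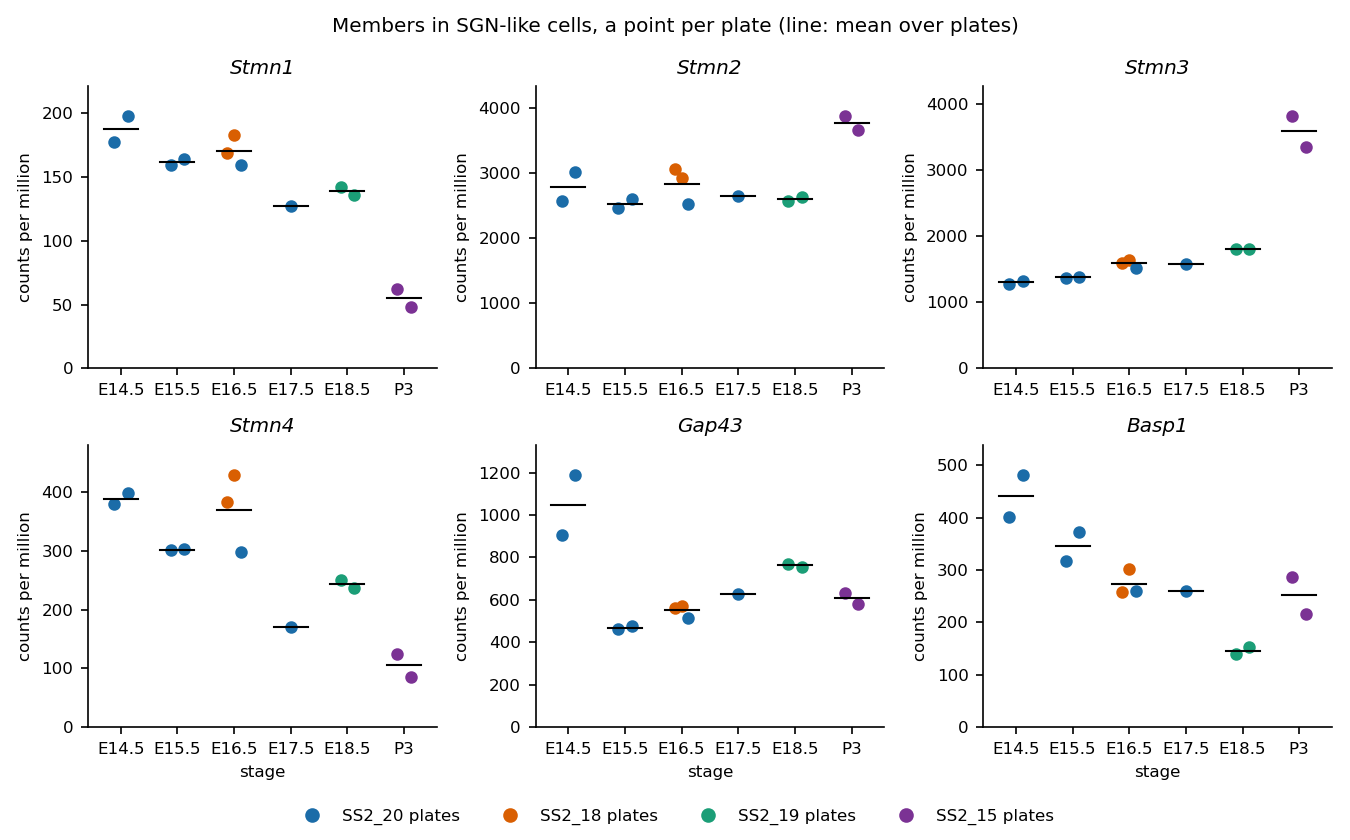
Level of each member in SGN-like cells in CPM (vertical axes, from 0) at the 6 stages (horizontal axes), with a point per plate coloured by plate series and a line at the mean over plates. *Gap43* and *Basp1* are highest at E14.5 (1188 and 904 CPM, and 481 and 401 CPM), and the P3 plates are the lowest for *Stmn1* and *Stmn4* and the highest for *Stmn2* and *Stmn3*.

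Single SGN-like cells followed the plate sums. The median cell carried *Stmn2* at 2178 to 2780 CPM in the embryonic plates and at 3007 and 2861 CPM at P3. For *Stmn1* the 90th percentile cell of the P3 plates, at 73.7 and 55.3 CPM, lay below the median cell of every embryonic plate, of which the lowest was 117 CPM. The 10th percentile of *Stmn3* at P3, at 2339 and 2130 CPM, exceeded the 90th percentile in 8 of the 10 embryonic plates and lay on both sides of those of the 2 E18.5 plates, 2250 and 2200 CPM. *Gap43* spread most within a plate: at E14.5 the 10th and 90th percentile cells stood at 257 and 1777 CPM in plate 1, and in E15.5 plate 1 its 10th percentile cell stood at 25.5 CPM below a median of 408 CPM.

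Across cells of a plate the members correlated weakly with each other. Over the 15 pairs of members, the median of the 12 within-plate Pearson correlations ran from 0.003 (*Stmn4* and *Basp1*) to 0.349 (*Stmn2* and *Gap43*), the latter being above 0 in all 12 plates (0.163 to 0.644). These are descriptions across cells that share a library and differ in depth.

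Glia-like and OM-like cells carried all stathmins at lower levels than SGN-like cells, and they differed from each other in the growth cone genes. In the 6 SS2_20 plates of E14.5 to E17.5, *Gap43* stood at 313 to 499 CPM in glia-like cells (median 406), at 31.6 to 120 CPM in OM-like cells (median 62.1) and at 460 to 1188 CPM in SGN-like cells (median 572). *Basp1* was ordered the other way, at 17.2 to 34.5 CPM in glia-like, 90.6 to 134 CPM in OM-like and 259 to 481 CPM in SGN-like cells. The *Gap43* level of glia-like cells was 31.0% to 108% of the SGN-like level of the same plate, and in E15.5 plate 1 it was the higher of the 2 at 499 against 460 CPM.

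The neural stathmins were low outside the neurons. In the same 6 plates *Stmn2* stood at 26.5 to 38.8 CPM in glia-like and 4.15 to 31.9 CPM in OM-like cells, against 2471 to 3025 CPM in SGN-like cells. Between 16.3% and 28% of glia-like cells per plate held a *Stmn2* count, against 98.9% to 100% of SGN-like cells. *Stmn3* stood at 12.4 to 25.7 CPM in glia-like and 0.0875 to 13.3 CPM in OM-like cells, and *Stmn4* at 0.355 to 2.64 CPM in glia-like and 0 to 1.87 CPM in OM-like cells. These shares, 1.94% of the SGN-like level or less, stand beside 1.08% to 1.76% for the summed SGN markers in the same cells, and the part of neuronal RNA in them was not tested.

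Few cells carried these counts. The 5% of glia-like cells with the most counts of the gene held 54.8% to 73.9% of *Stmn2*, 66.3% to 74.4% of *Stmn3* and at least 93.4% of *Stmn4* in each of these plates. Without them *Stmn2* in glia-like cells stood at 9.17 to 17.9 CPM and *Stmn3* at 3.91 to 10.2 CPM. In OM-like cells they held 59.0% to 100% of *Stmn2* and 56.1% to 100% of *Stmn3*, which without them stood at 0 to 15.3 CPM and 0 to 6.85 CPM. *Gap43* in glia-like cells (15.2% to 24% in the top 5% of cells) and *Basp1* in OM-like cells (14.2% to 19.2%) were spread over more cells, and without the top cells they stood at 294 CPM or more and 89.1 CPM or more.

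*Stmn1* was lower in both classes but well above those shares. It stood at 23.5 to 45.4 CPM in glia-like and 24.3 to 38.5 CPM in OM-like cells, against 127 to 198 CPM in SGN-like cells. As a share of the SGN-like level of the plate this was 18.47% to 25.6% in glia-like and 18.46% to 24.2% in OM-like cells. The ranges of the 2 classes overlapped each other and lay below those of the SGN-like cells in every plate.

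The fit over E14.5 to E17.5, which also holds the SS2_18 plates, called all 6 members lower in glia-like than in SGN-like cells, where 21% of 18502 genes were called lower and 22.2% higher. The log2 differences were -1.69 ± 0.25 for *Stmn1*, -5.0 ± 0.89 for *Stmn2*, -5.03 ± 1.02 for *Stmn3*, -5.50 ± 1.18 for *Stmn4*, -3.0 ± 0.34 for *Basp1* and -0.57 ± 0.21 for *Gap43*. The adjusted p-values were at most 0.00157 for 5 of them and 0.0429 for *Gap43*. The *Gap43* call was lost in 10 of 20 alternatives (adjusted p 0.0567 to 0.208), among them limma, the omission of cells with the highest counts, cells below the median in SGN markers and the omission of any 1 plate of E14.5 or E15.5 or of E16.5 plate 1 or 2. With the plate as a block it was -0.60 with an adjusted p of 0.208, and without the glia-like and OM-like sums of SS2_18 it was -0.44 ± 0.10 with an adjusted p of 0.00294. The same omission made the differences of the neural stathmins larger, at -6.24, -6.31 and -7.58.

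All 6 members were also called lower in OM-like than in SGN-like cells, against 22.6% of genes called lower and 21.7% higher. The differences were -1.88 ± 0.25 for *Stmn1*, -3.0 ± 0.25 for *Gap43*, -1.40 ± 0.31 for *Basp1* and -6.09 ± 0.96 for *Stmn2*, with adjusted p-values of 3.17e-05, 9.72e-07, 0.00152 and 0.000109. For *Stmn3* and *Stmn4* the fitted differences, -7.85 and -8.25, rest partly on OM-like sums at or near 0 counts, where they depend on the prior count. How far they depend on it was not tested. They also include the SS2_18 sums, which carried *Stmn3* at 591 and 928 CPM. Without the SS2_18 sums the differences were -7.34 for *Stmn2*, -9.15 for *Stmn3* and -9.83 for *Stmn4*. *Stmn4* had no count in the OM-like cells of E15.5 plates 1 and 2, and a floor of 3 counts in a sum puts it at least 824-fold and 978-fold lower there than in SGN-like cells.

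Compared directly, *Gap43* was higher in glia-like and *Basp1* in OM-like cells. *Gap43* differed by 2.43 ± 0.24 (adjusted p = 8.65e-06) and *Basp1* by -1.60 ± 0.31 (adjusted p = 0.00204), in the same direction in all 6 SS2_20 plates. *Stmn3* was called higher in glia-like cells as well (2.82 ± 0.88, adjusted p = 0.0378), so that 2 members were called higher and 1 lower, against 8.46% and 8.05% of genes. The *Stmn3* call was lost in 11 of 20 alternatives (adjusted p 0.059 to 0.421), among them the plate as a block (1.63, adjusted p = 0.323), the stricter cell filter (1.16, adjusted p = 0.421), limma, both other clusterings, cells below the median in SGN markers and the omission of E14.5 plate 1 or 2, E15.5 plate 1 or E16.5 plate 1 or 2. It held without the SS2_18 sums (2.84, adjusted p = 0.000359). That omission also called *Stmn2* (1.10, adjusted p = 1.83e-05) and *Stmn4* (2.25, adjusted p = 0.00595) higher in glia-like cells, while in cells below the median in SGN markers *Stmn2* differed by -0.01 (adjusted p = 1). *Stmn1*, at 0.19 ± 0.24 (adjusted p = 0.752), was not called.

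**Figure D2:**
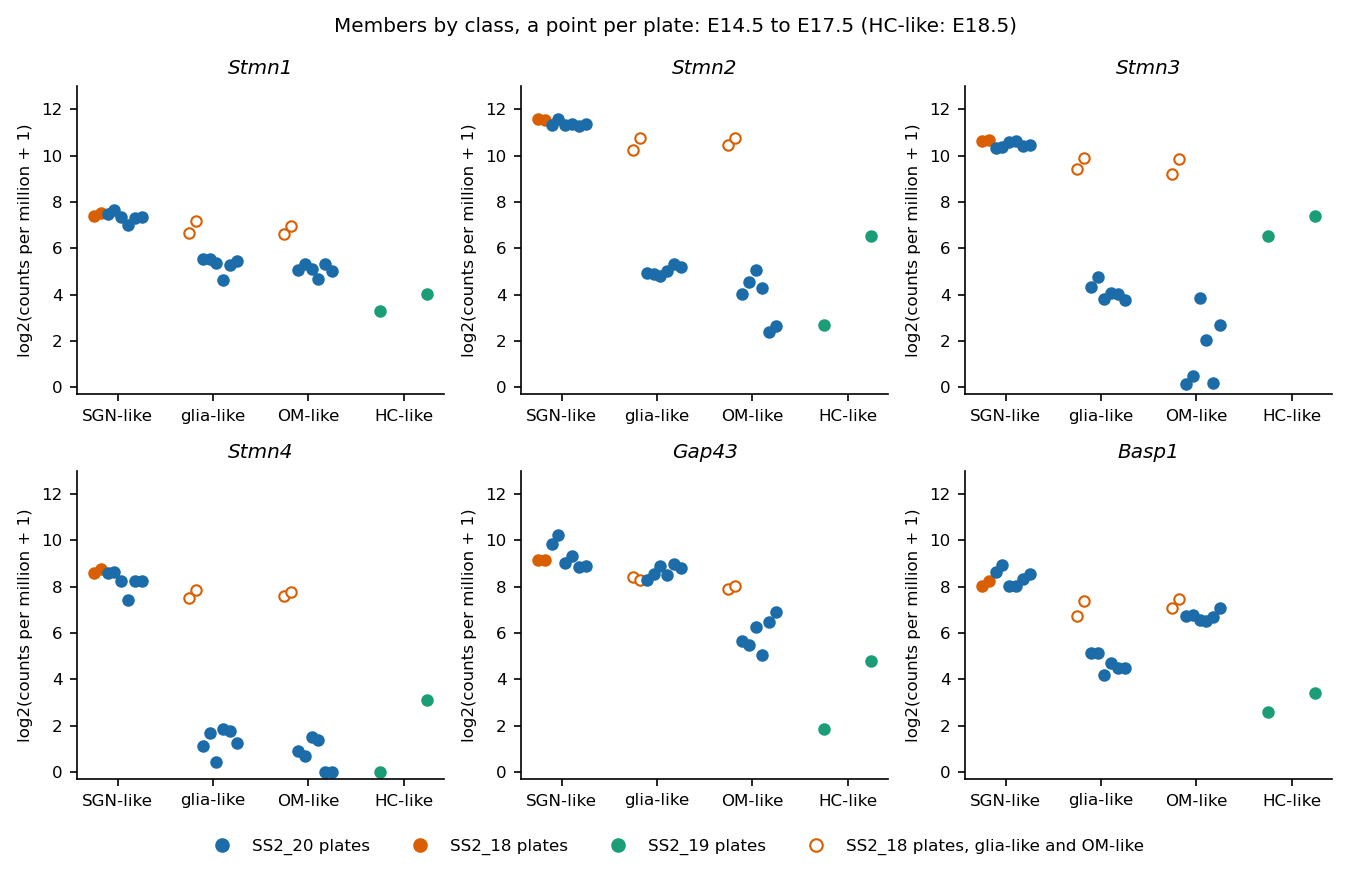
Level of each member on a log2(CPM + 1) scale (vertical axes) in 4 classes (horizontal axes; E14.5 to E17.5, HC-like from E18.5), with a point per plate coloured by plate series. Open points are the glia-like and OM-like cells of the SS2_18 plates, which lie well above the SS2_20 points for the neural stathmins; *Gap43* in glia-like cells (313 to 499 CPM) lies close to the SGN-like points.

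Within the glia-like class no change of *Gap43* between E14.5 and E16.5 was called. It stood at 368 and 313 CPM at E14.5, 499 and 444 CPM at E15.5, 337, 308 and 474 CPM at E16.5 and 367 CPM at E17.5. The difference between E16.5 and E14.5 was 0.03 ± 0.36 and was not called, nor was any other member (0.0811% of genes were called). The SS2_18 sums lower this *Gap43* value: without them, with the plate at 474 CPM alone at E16.5, it was 0.52. The change in glia-like minus that in SGN-like cells was 0.89 ± 0.51 for *Gap43* (adjusted p = 0.539), and no member was called in this test (0.0703% of genes were called). Without the SS2_18 sums it was 1.49 ± 0.26 with an adjusted p of 0.0339, and with the SS2_20 plates alone it was 1.57 with an adjusted p of 0.113. Of its 19 alternatives the former was the only one to call it.

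The SS2_18 cells decide the stage values of the other members in glia-like cells. *Stmn2* stood at 28.9 and 29.5 CPM at E14.5 and at 1199, 1729 and 26.5 CPM in E16.5 plates 1, 2 and 3. In E16.5 plates 1 and 2 the 6 members reached 39.2% to 77.5% of the SGN-like level in glia-like cells and 36.9% to 66.4% in OM-like cells. The summed SGN markers of the same 4 sums stood at 41.3% to 60.5%. The fitted *Stmn2* difference between E16.5 and E14.5 was 4.86 ± 1.39 with all plates (adjusted p = 0.135) and -0.10 ± 0.21 without the SS2_18 sums.

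**Figure D3:**
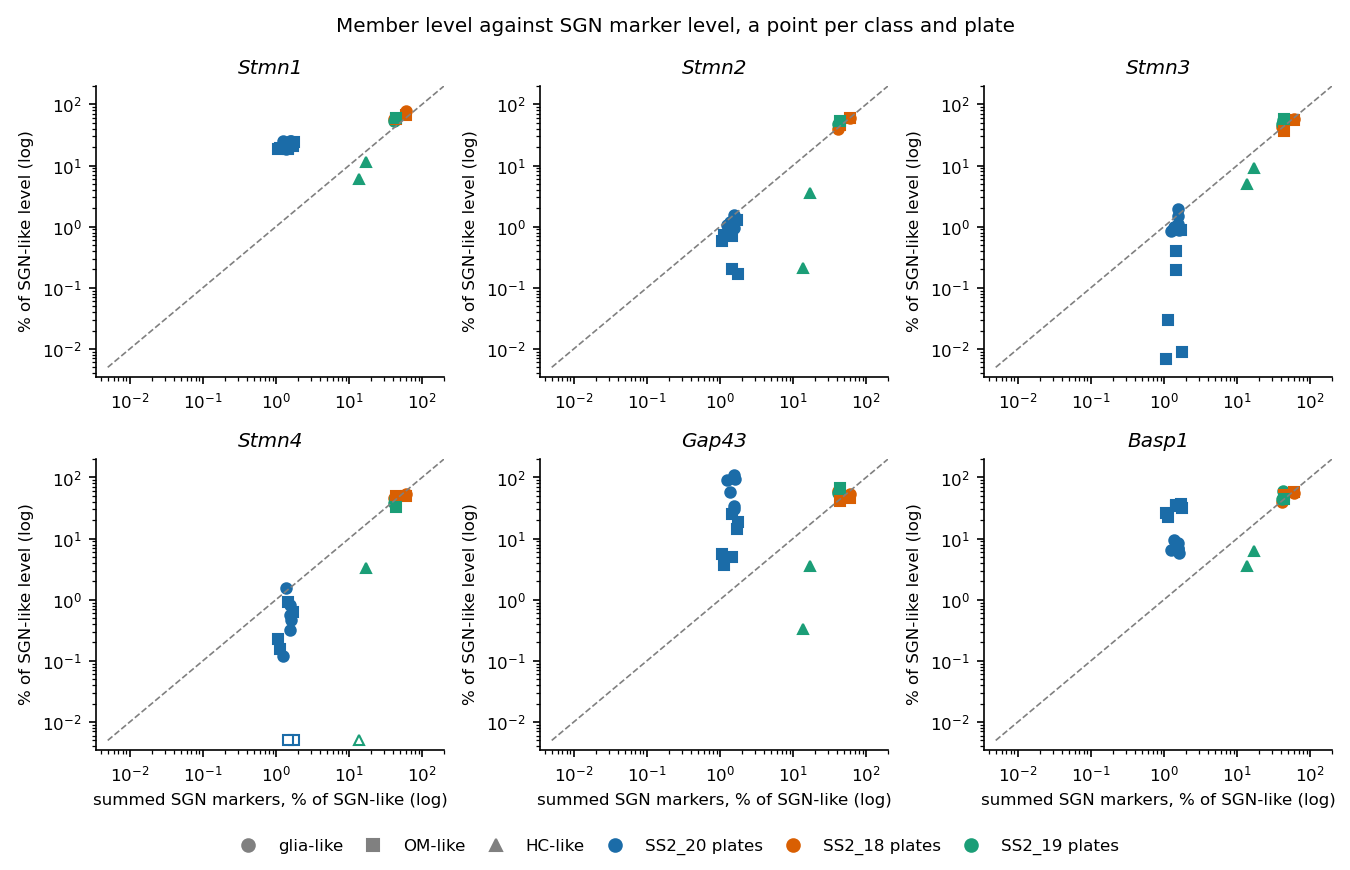
Level of each member as a percentage of the SGN-like level of the same plate (vertical axes, log scale) against the same percentage for the summed SGN markers (horizontal axes, log scale), with a point per class and plate. Circles are glia-like, squares OM-like and triangles HC-like sums, open symbols are values of 0, and the dashed line marks equal percentages; in SS2_20 glia-like cells *Gap43* (31.0% to 108%) and in OM-like cells *Basp1* (22.2% to 36.3%) lie far above it, while the glia-like and OM-like points of SS2_18 and E18.5 lie near it (members at 32.4% to 77.5%).

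HC-like cells at E18.5 carried all members below the SGN-like level, with *Stmn3* the highest of the 6 per kb of transcript (114 CPM per kb). In plates 1 and 2 (37 and 32 cells) *Stmn3* stood at 92.0 and 166.4 CPM, *Stmn1* at 8.72 and 15.3 CPM, *Basp1* at 4.98 and 9.60 CPM, *Stmn2* at 5.40 and 92.2 CPM, *Gap43* at 2.58 and 26.6 CPM and *Stmn4* at 0 and 7.70 CPM. *Stmn2*, *Stmn4* and *Gap43* thus differed widely between the plates. *Stmn3* thus stood at 5.08% and 9.24% of the SGN-like level, beside 13.7% and 17.3% for the summed SGN markers in the same sums. The part in these values of neuronal, epithelial, OM and glial RNA was not tested. The paper set vestibular HCs apart and discarded them, while the HC-like class here was not divided into cochlear and vestibular cells. Its 2 clusters carried *Stmn3* at 111.5 and 85.95 CPM in plate 1 and at 194.5 and 148.2 CPM in plate 2, without TMM. All 6 members were called lower than in SGN-like cells of the same plates, where 29.4% of 16060 genes were called lower and 27.9% higher. The difference was smallest for *Stmn1* (-3.48 ± 0.26, adjusted p = 0.000388) and *Stmn3* (-3.75 ± 0.30, adjusted p = 0.000456).

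The higher values of plate 2 came from 2 cells. These cells, the same for each gene, held 96.5% of the *Stmn2*, 96.7% of the *Gap43* and 98.9% of the *Stmn4* counts of the 32 HC-like cells, and their SGN markers stood at 6445 and 6449 CPM against a median of 1693 CPM in the other 30. Scaled to their own total counts, the other 30 cells carried *Stmn2* at 3.50, *Gap43* at 0.947 and *Stmn4* at 0.0947 CPM. *Stmn3* in those 30 cells stood at 116 CPM, and in plate 1 without its top 2 cells at 83.4 CPM.

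*Stmn3* was spread over the HC-like cells. It was counted in 97.3% and 96.9% of the HC-like cells of plates 1 and 2, with a median cell at 86.8 and 102 CPM. *Stmn2* was counted in 37.8% and 71.9% with median cells at 0 and 3.59 CPM. Among HC-like cells below the median in SGN markers, *Stmn3* differed from SGN-like cells by -3.98 (adjusted p = 5.27e-05) and *Stmn2* by -9.20 (adjusted p = 8.16e-05). *Stmn4* had no count in the 37 cells of plate 1, which at a floor of 3 counts is at least 1007-fold below the SGN-like level of 251 CPM, and DESeq2 gave its difference an adjusted p of 0.0662.

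The 5 HC-like cells of E17.5 were too few for a comparison. They carried *Stmn3* at 27.4 CPM, all of it in 1 cell, *Stmn1* at 21.8 CPM and *Gap43* at 19.4 CPM, also in 1 cell. *Stmn4* had no count, and *Stmn2* had 1 count.

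Among the SGN-like cells of E18.5 and P3, sub-clusters named from type I and type II neuron markers held 631 I-like and 66 II-like cells. Sub-clusters of 89, 79, 38 and 26 cells at E18.5 and of 48 cells at P3 stayed unnamed and entered neither group. Their mean scaled levels of the type II markers were 0.177, 0.247, 0.321, -0.110 and -0.302, against 1.10 in the II-like sub-cluster of E18.5. The comparison thus covers the named cells only. Type I neurons contact inner HCs and type II neurons outer HCs. *Stmn3* stood at 1320 and 1428 CPM in II-like against 1890 and 1842 CPM in I-like cells of E18.5 plates 1 and 2, and at 2013 against 4004 CPM in P3 plate 1. *Gap43* stood at 511 and 512 against 864 and 830 CPM at E18.5 and at 391 against 636 CPM in P3 plate 1. P3 plate 2 held too few II-like cells and gave I-like values of 3458 CPM for *Stmn3* and 597 CPM for *Gap43*.

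For both genes the II-like value was the lower in all 3 plates that hold both. With stage in the model *Stmn3* differed by -0.61 ± 0.10 (adjusted p = 0.00634) and *Gap43* by -0.69 ± 0.08 (adjusted p = 0.00148), the 2 members called, both lower, where 6.90% of 16322 genes were called lower and 4.98% higher. With the plate as a block the differences were -0.60 (adjusted p = 0.0292) and -0.70 (adjusted p = 0.00844). Without E18.5 plate 1, that of *Stmn3* was -0.64 with an adjusted p of 0.0571.

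*Stmn2* was at 2162, 2468 and 3648 CPM in II-like cells of these plates and at 2601, 2634 and 3891 CPM in I-like cells, a difference of -0.12 ± 0.09 (adjusted p = 0.442). Its approximate interval, from the standard error and a normal quantile, was -0.28 to 0.05, which is narrower than a 95% interval of the test. *Stmn4* (-0.44 ± 0.19) and *Basp1* (-0.38 ± 0.17) had adjusted p-values of 0.182 and 0.194. *Stmn1* stood at 100 and 97.3 CPM in II-like against 130 and 129 CPM in I-like cells at E18.5, and at 83.8 against 63.6 CPM in P3 plate 1. Its direction thus differed between the stages, and the fitted difference of 0.03 ± 0.21 was not called. The II-like sums also carried glial markers at 6533, 4901 and 5937 CPM against 4424, 4269 and 6246 CPM in the I-like sums of these plates, and among cells below the median in glial markers *Stmn3* and *Gap43* differed by -0.68 and -0.75 (adjusted p = 0.0215 and 0.016).

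**Figure D4:**
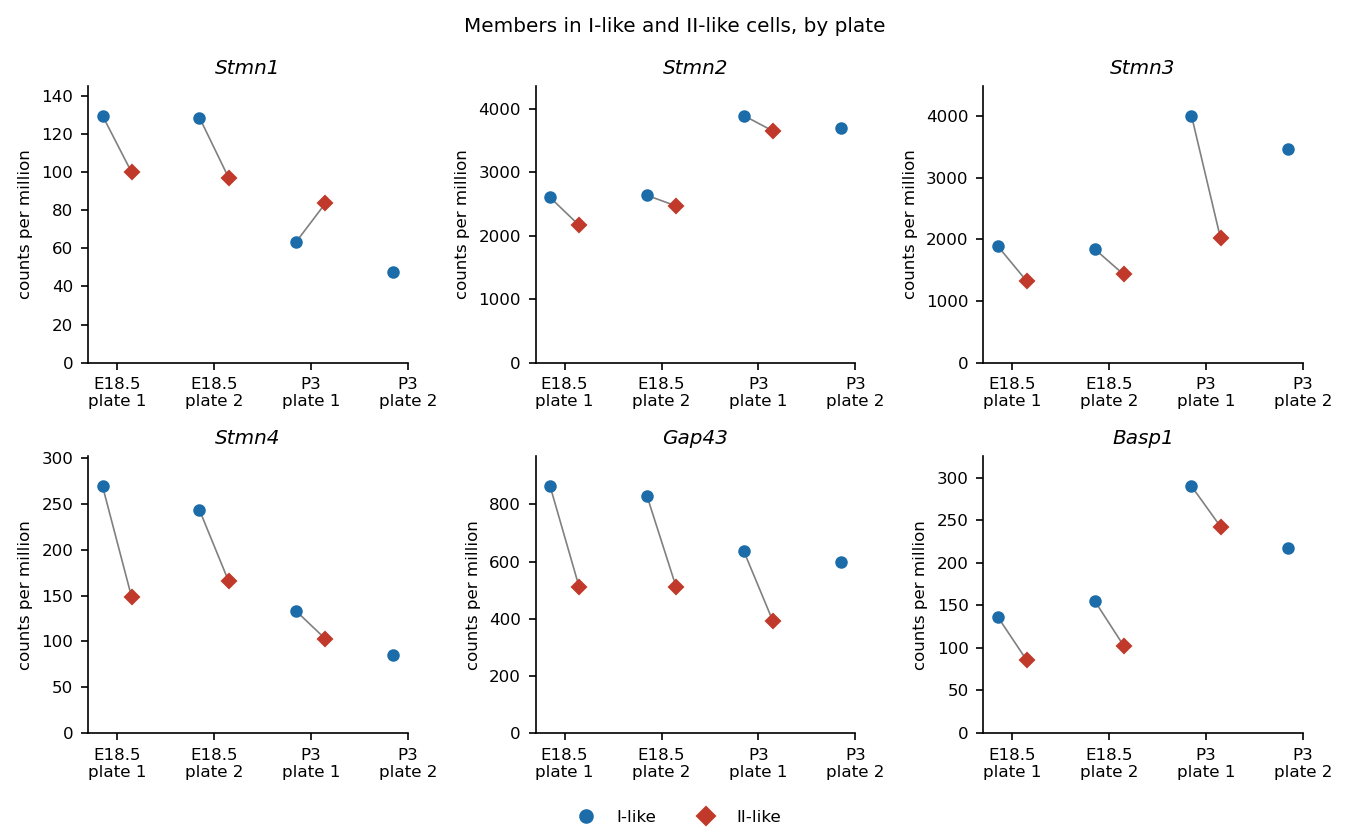
Level of each member in CPM (vertical axes, from 0) in I-like cells (circles) and II-like cells (diamonds) of each plate of E18.5 and P3 (horizontal axes), with a line joining the values of a plate. *Stmn3* and *Gap43* lie lower for II-like than for I-like cells in the 3 plates with both, and *Stmn1* changes direction between E18.5 and P3.

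Other proteins of the growth cone were compared through a list of 25 genes. In glia-like against SGN-like cells 21 were lower and 3 higher, with a median log2 difference of -1.66 against 0.12 over all genes tested. *Nrn1* (neuritin, a neurite growth factor) was the furthest below at -6.33 ± 1.07, and *Myo10*, the motor of filopodia, the furthest above at 2.79 ± 0.36. In OM-like cells 21 were lower and 2 higher, with *L1cam*, an axonal adhesion molecule, at -8.71 ± 1.43 and *Myo10* at 2.0 ± 0.34. *L1cam* separated glia-like from OM-like cells (6.52 ± 1.35), where 6 of the 25 were higher and 4 lower, *Ablim1* among the lower at -1.76. In HC-like cells 20 were lower and 3 higher, from *Nrn1* at -5.74 to *Evl*, an actin regulator, at 2.77.

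In SGN-like cells fewer genes of the list were called at each step. Of all genes, 8.65% were called higher and 5.83% lower at E16.5, 2.33% and 2.01% at E18.5, and 12.2% and 12.1% at P3. In II-like cells 4.98% were higher and 6.90% lower. At E16.5 against E14.5, 2 were higher and 6 lower, with *Ablim1*, an actin-binding protein, at 2.10 ± 0.18 and *Nav1* at -0.84 ± 0.14. At E18.5 against E16.5, 1 was higher (*Ablim1*, 0.79) and 3 were lower, the furthest being *Cdk5r1*, the activator of the kinase CDK5, at -0.98. At P3 against E18.5, 4 were higher and 10 lower, from *Nrn1* at 2.0 ± 0.26 (84.9 and 90.3 CPM at E18.5, 344 and 359 CPM at P3) to *Palm* at -1.59 ± 0.25. In II-like cells 3 were higher and 8 lower, from *Nav1* at 1.52 to *Fez1* at -0.86.

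The list of 11 regeneration-associated genes holds transcription factors and effectors linked to the regeneration of axons, whether they favour or restrain it. At P3 against E18.5, 4 of its 10 tested genes were lower and none higher in SGN-like cells, against 12.1% and 12.2% of all genes. *Jun* was the furthest below at -1.80 ± 0.19, with 329 to 373 CPM at E18.5 and 96.8 to 106 CPM at P3. At E16.5 against E14.5, 2 were higher and 2 lower, from *Klf4* at 1.89 to *Gal* (galanin) at -3.95, and 1 (*Sox11*, -0.87) was lower at E18.5. Against SGN-like cells 6 of 11 were higher in glia-like (*Klf9* at 3.98, 3 lower) and in OM-like cells (*Atf3* at 3.94, 2 lower, *Klf7* furthest at -1.60), and 4 of 10 in HC-like cells (*Gal* at 2.56, 2 lower, *Klf7* furthest at -3.07). Between glia-like and OM-like cells 2 were lower in the former, and none of 10 was called in II-like cells.

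Regulators of the members, 19 genes that include kinases, calmodulins and palmitoyl transferases, formed the last list. The shares of all genes called, given with the growth cone list, apply to its counts as well. *Rest*, a repressor of neuronal genes, was higher in glia-like (4.19 ± 0.42) and OM-like cells (4.50 ± 0.43), where 2 of the list were higher and 13 lower in each, with *Camk4* (-6.02) and *Mapk10* (-7.23) furthest below. At P3, 9 were higher and 2 lower in SGN-like cells, from *Calm2* (calmodulin, 1623 and 1854 CPM at E18.5 and 4471 and 4492 CPM at P3, 1.36 ± 0.10) to *Tardbp* at -0.43 ± 0.12. *Tardbp* encodes TDP-43, which is known to guard the splicing of human *STMN2*. The earlier steps called 2 higher and 2 lower at E16.5 (*Camk4* furthest above at 1.83) and 1 each at E18.5 (*Calm2* 0.78, *Mapk8* -0.61). HC-like cells had 4 higher and 11 lower (*Camk4* furthest below at -5.57), II-like cells 3 higher and 7 lower (*Prkca* 1.29, *Pak1* -1.62), and 2 were lower in glia-like than in OM-like cells (*Prkce* furthest at -0.71). None of the 3 lists had a call in the stage test of glia-like cells or in its difference from SGN-like cells.

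The genes most like each member were sought over 37 sums of a class and plate by the Pearson correlation of log2(CPM + 1), among 9092 genes with a mean of at least 20 CPM. The sums differ mainly by class, share plates and have unequal depth, so the values describe these sums only. *Stmn1* was closest to *Hn1* (0.963), *Tubb2b* (0.952), a tubulin of immature neurons, and *Trim35* (0.933). *Stmn2* was closest to *Ppp1r1c* (0.993), *Pcsk1n* and *Resp18* (0.983 each), and *Stmn3* to *Rab6b* (0.984), the synaptic vesicle gene *Syp* (0.979) and *Sncg* (0.976). *Stmn4* was closest to *Trim67* (0.982), *Nsg2* and *Pirt* (0.981 each). *Gap43* was closest to *Gng2* (0.923), *Phactr1* (0.911) and *Ntng1* (0.906), and *Basp1* to *Ccdc88a* (0.951), *Irx1* (0.944) and *Tro* (0.924). Among the members the highest value joined *Stmn2* and *Stmn4* (0.974) and the lowest *Stmn3* and *Basp1* (0.562).

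**Figure D5:**
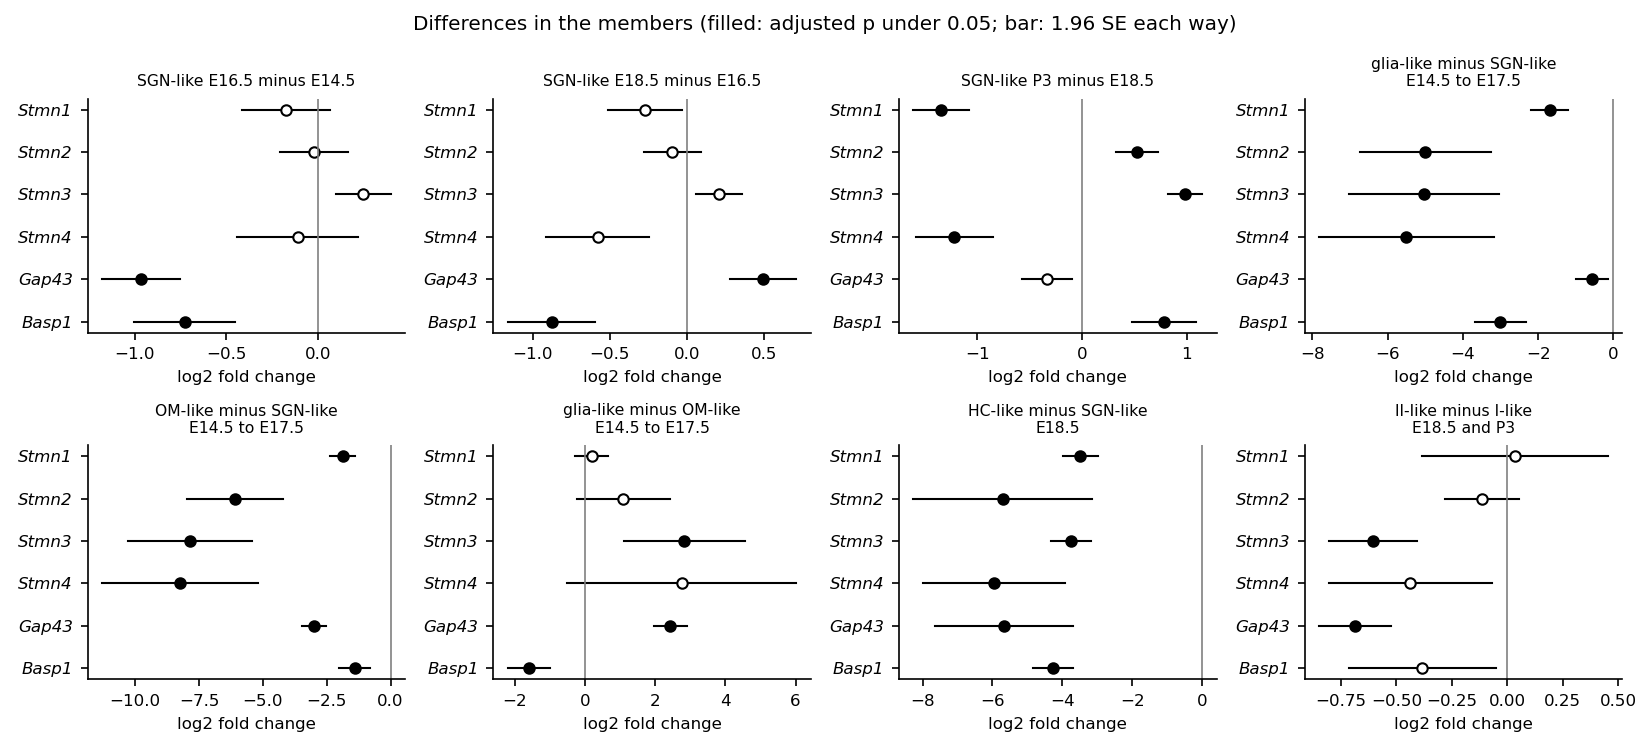
Log2 fold change of each member (horizontal axes) in 8 comparisons (panels), with a filled point where the adjusted p is under 0.05. Bars span the standard error times the normal 95% quantile each way, which is narrower than a 95% interval of the test. All points lie below 0 in the panels against SGN-like cells, *Gap43* being the nearest to 0 for glia-like cells (-0.57), and the stathmins lie on both sides of 0 between E18.5 and P3.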

How the data were processed

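Full-length cDNA of single sorted cells was read without molecular identifiers. The authors demultiplexed the reads, aligned them with STAR to mm10 with spike-in sequences and deposited whole-number counts per gene and cell of uniquely mapped reads, counted with featureCounts (its version and strand setting are not given in the sources used here). The submitters' processing notes name STAR, Scanpy and mm10, and the Reporting Summary gives STAR 2.4.2a. The deposited counts were used as they are, and 1 further plate of the table, which belongs to no sample of the series, was not used.

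Cells with more than 1000 genes and less than 5% spike-in counts were kept. Each stage group was scaled to 1000 counts per cell, log-transformed and clustered (scanpy 1.11.5, leidenalg 0.10.2, 2000 variable genes, 30 components, 30 neighbours, resolution 1) without the members, the pathway lists and the authors' glial gene set. E17.5 was clustered with E18.5. Clusters were named from fixed marker lists by a rule settled after the cluster tables, and before any member value, had been seen. Clusters that failed it stayed unnamed (346 cells). No doublet caller was run, and cells with the highest counts were left out in an alternative instead. The members and lists were chosen with earlier results of these data known.

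Counts were summed per class and plate (at least 5 cells, or 3 for HC-like cells), scaled by TMM and tested with edgeR 4.0.16 (glmQLFit and glmQLFTest, filterByExpr, R 4.3.3). P-values are two-sided and Benjamini-Hochberg adjusted over all genes tested, with a threshold of 0.05. Levels are TMM-scaled CPM, except percentiles over cells, values of part of a class and correlations across cells, which are CPM of the cells' own total without TMM. Alternatives used DESeq2 1.42.0 and limma 3.58.1. From each list the text names the called gene with the largest change in each direction, except 1 gene that is not reported here. Floors of 3 counts and all intervals cover counting or fitting error only. Classes of a plate come from the same pooled animals, so the plate was used as a block in an alternative, although only 9 of 27 class pairs deviated together (r over 0.1, range -0.149 to 0.71).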

Additional observations from a re-analysis of the deposited data

How the results depend on the processing

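The alternatives left 1004 of the values for single members in direction and on the same side of the threshold, while 43 passed it, 38 lost it and 31 changed sign. The alternatives that leave out the SS2_18 sums or keep SGN-like cells below the median in glial markers or HC-like cells below that in SGN markers were chosen after seeing the data.

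The number of genes called changed by more than 1.5 times in these cases. DESeq2 called 4017 genes between E14.5 and E16.5 (2573 in edgeR), 1794 between E16.5 and E18.5 (771), 1233 in the stage test of glia-like cells (15), 653 in its difference from SGN-like cells (13) and 3044 between II-like and I-like cells (1940). For that stage test and that difference, the counts were 4 and 50 with SS2_20 alone, 36 and 21 without a filter, 88 and 69 with limma, 53 and 49 with the glial genes kept, 4 and 7 at Leiden resolution 2 and 40 and 87 without the SS2_18 sums. The stage test gave 6 without the cells of highest counts. The difference gave 20 there, 21 with RLE factors, 42 with a stricter cell filter and 3 in cells below the median in SGN markers. At an unadjusted p under 0.05 the stage test held 2489 and the difference 2132 genes. SS2_20 alone gave 321 between E14.5 and E16.5, and the omission of SS2_18 sums gave 4644 between glia-like and OM-like cells (3054). SGN-like cells below the median in glial markers gave 382 between E16.5 and E18.5 and 2611 between E18.5 and P3 (4313).

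Leaving out single plates gave 1421 to 3369 calls between E14.5 and E16.5, 68 to 1154 between E16.5 and E18.5, 2091 to 5069 between E18.5 and P3, 6822 to 7976 for glia-like and 6980 to 8229 for OM-like against SGN-like cells, 2034 to 3773 for glia-like against OM-like, 0 to 2372 for the glial stage test, 0 to 1443 for its difference and 590 to 1624 for II-like against I-like cells. The values of 2372 and 1443 came without E16.5 plate 3. HC-like cells could not be fitted without a plate, since no residual degrees of freedom remain.

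With the plate as a replicate block the II-like comparison called 1102 genes, and beside *Gap43* and *Stmn3* in glia-like cells, given above, the block ended or made no other call of a member. Signs changed mostly for differences near 0 and for glia-like cells. In SGN-like cells *Stmn2* turned to 0.03, 0.04, 0.00, 0.13 and 0.05 and *Stmn4* to 0.02 between E14.5 and E16.5, and *Stmn2* to 0.05 between E16.5 and E18.5. In glia-like cells with SS2_20 alone the stage differences were -0.13 (*Stmn1*), -0.10 (*Stmn2*), -0.74 (*Stmn3*), -2.20 (*Stmn4*) and -0.95 (*Basp1*), with differences from SGN-like cells of -0.94, -1.79 and -0.15 for *Stmn3*, *Stmn4* and *Basp1*. Without the SS2_18 sums they were -0.13, -0.10, -0.75, -2.20 and -0.95, with -0.08, -0.99, -2.09 and -0.22 for *Stmn2*, *Stmn3*, *Stmn4* and *Basp1*. *Gap43* in glia-like cells ranged from -0.29 (without E16.5 plate 3) to 0.19 (without E16.5 plate 2) when single plates were left out, with -0.08 without E14.5 plate 2. *Stmn2* was -0.01 between glia-like and OM-like cells in 1 alternative, and *Stmn1* in II-like cells was -0.11 with the block, -0.00 at Leiden resolution 2 and ranged from -0.40 (without P3 plate 1; -0.13 without P3 plate 2) to 0.23 (without E18.5 plate 2). The cause of these changes was not tested.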

Other observations

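Some small classes stand outside the comparisons. Epithelial-like cells (12, 13 and 12 cells at E14.5, E15.5 and E16.5) carried *Stmn1* at 31.1, 29.2 and 15.3 CPM without TMM, within or below the range of glia-like and OM-like cells. *Stmn2* was at 0, 0 and 1.91 CPM in them. *Stmn3* was at 0.350 and 2.41 CPM at E14.5 and E15.5 and at 159 CPM at E16.5. The E16.5 cluster also carried HC markers, with *Otof* among its leading genes. Its mean log level of the HC markers was 0.284, against 0.0238 and 0.0571 at E14.5 and E15.5, beside 0.406 for its epithelial markers. Its *Stmn3* value can thus not be assigned to epithelial cells. *Basp1* stood at 12.2, 64.7 and 27.6 CPM in the same cells. In 6 macrophage-like cells of E14.5, *Basp1* was at 53.4 CPM, *Stmn1* at 10.1 CPM and *Gap43* at 0. These are sums over few cells, with no test.

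*Nrn1*, given above for SGN-like cells, stood at 86.0 and 93.3 CPM in II-like and 96.2 and 109 CPM in I-like cells at E18.5, and at P3 at 665 CPM in the II-like cells of plate 1 against 289 and 346 CPM in I-like cells. *Calm2* stood at 765 and 868 CPM in II-like and 2177 and 2287 CPM in I-like cells at E18.5, and at 1638 against 4546 and 4662 CPM at P3. Both were looked up after their values at P3 had been seen.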
